A study of Rattus norvegicus with 22 samples.

Results

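The nuclear genes of the mitochondrial respiratory chain were followed in rat hippocampus after traumatic brain injury (TBI). Members were the genes of the count table whose symbol begins with Nduf, Uqcr, Cox4 to Cox8 or Atp5, together with Sdha, Sdhb, Sdhc, Sdhd and Cyc1, with at least 100 reads summed over the 14 libraries. In all, 83 of 17172 genes met this rule. Complex I held 39 of them, including 6 assembly factors, complex II 4, complex III 9, complex IV 15 and complex V 16. Complex V was filled by symbol and includes Atp5sl, which by its later name, Dmac2, is an assembly factor and not a subunit of complex V. The member nearest above the limit was Cox8b, with 163 reads over all libraries, and the nearest below it was Cox7a2, with 59. The other symbols below the limit were Atp5f1 with 17 reads, Cox6c-ps1 with 2, and Cox8c and Ndufa10l1 with 0. Cox7a2 and Atp5f1 encode subunits that most cells use, so their tissue level was not read from these counts, and how reads with several matches were counted is not given in the sources used here. Several members have processed pseudogenes, and reads that such a copy shares with its gene could not be separated here. None of the 23 mitochondrially encoded symbols looked for was in the table, so that each complex is described by its nuclear genes alone.

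Adult male Sprague-Dawley rats received lateral fluid percussion, a pressure pulse of fluid onto the exposed dura, or a sham operation with the same surgery and anesthesia and no pulse. RNA was taken from the bulk hippocampus on the injured side, and polyadenylated RNA was sequenced in 2 sham and 4 TBI samples at day 1 and in 4 sham and 4 TBI samples at day 14. These numbers are those of the labels, while the study's text is not uniform on how many sham animals day 14 had. The p-values therefore measure the spread between these samples, as estimated in 1 fit over all 14 libraries. In that fit the day 1 tests borrow the spread of the day 14 groups. The libraries held 15065540 to 23743703 counted reads, of which 0.752% to 1.14% belonged to the members. Choroid plexus transcripts were high in 3 libraries, sham day 1 replicate 1 and TBI day 14 replicates 2 and 3, and the summed level of 16 choroid plexus markers ran from 211 to 11070 CPM (read counts scaled to the normalized library size) in sham day 1 and from 209 to 8758 CPM in TBI day 14, against 137 to 151 CPM in TBI day 1.

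The respiratory chain carries electrons from NADH through complex I, and from succinate through complex II, to ubiquinone, then through complex III and cytochrome c to complex IV, which reduces oxygen. Complexes I, III and IV pump protons across the inner mitochondrial membrane, and complex V, the ATP synthase, uses the returning flow to make ATP. Neurons depend heavily on this pathway to keep their ion gradients. Several complex IV subunits have alternative isoforms with restricted use: Cox6a2 and Cox8b are the isoforms of heart and skeletal muscle, Cox6b2 is best known from testis, and Cox4i2 and Ndufa4l2 are known from oxygen-sensing and hypoxic cells.

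All 83 members were matched to RefSeq genes of the GRCr8 rat assembly, 67 by symbol and 16 by an older symbol, and 71 had a promoter sequence of 300 bases, running from 250 before to 50 after the annotated start. On either strand, the NRF1 motif GCATGCGC was present in 10 of these 71 promoters (14.1%), against 4.61% of the promoters of the 10272 tested genes that were matched to one. These matched genes are the comparison for each motif share below. The YY1 motif AAGATGGC was present in 15 (21.1% against 5.04%) and the ETS motif CCGGAAGT in 7 (9.86% against 7.36%). Of the 71 promoters, 27 (38%) held at least 1 of the 3 motifs, against 15.7% of the matched genes. TAAAAATA, the core of a MEF2 motif, was looked for after the Cox6a2 promoter had been read. It was found among the members in Cox6a2 alone (1.41% against 1.05%), a share near that of the matched genes. NRF1 and the ETS factor GABP are known regulators of nuclear genes for the respiratory chain, and MEF2 is known for muscle genes. A match describes the letters only. The 250 bases before the start are shown, 5′ to 3′ on the strand of the gene, for Cox6a2, the member with the largest rise, for Uqcr10, the member with the largest fall that passed the test, and for Atp5o, as a member with an NRF1 motif. Capitals mark the MEF2 core in Cox6a2 and overlapping NRF1 motifs of both strands in Atp5o, and none of the 4 motifs lies in the Uqcr10 stretch.
Cox6a2 chr1:192219717-192219966 (minus strand): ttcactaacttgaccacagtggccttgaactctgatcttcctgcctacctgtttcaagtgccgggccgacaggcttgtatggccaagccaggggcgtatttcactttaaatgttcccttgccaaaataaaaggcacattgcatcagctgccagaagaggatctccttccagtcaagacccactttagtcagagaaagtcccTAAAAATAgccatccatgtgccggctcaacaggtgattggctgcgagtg
Uqcr10 chr14:83791915-83792164 (minus strand): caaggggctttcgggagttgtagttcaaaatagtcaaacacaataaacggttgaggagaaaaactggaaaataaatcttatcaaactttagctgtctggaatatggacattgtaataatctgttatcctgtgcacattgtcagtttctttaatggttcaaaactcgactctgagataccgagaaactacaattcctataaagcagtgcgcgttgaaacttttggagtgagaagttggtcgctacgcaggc
Atp5o chr11:44657484-44657733 (minus strand): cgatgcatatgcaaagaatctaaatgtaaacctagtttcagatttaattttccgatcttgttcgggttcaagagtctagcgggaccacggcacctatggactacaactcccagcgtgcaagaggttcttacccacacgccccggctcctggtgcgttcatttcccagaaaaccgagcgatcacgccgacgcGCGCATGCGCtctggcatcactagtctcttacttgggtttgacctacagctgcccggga

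At day 1, TBI was compared with the sham samples of the same day to ask which members differed in the acute phase. Of 83 members, 2 rose and 3 fell (adjusted p under 0.05 by edgeR's quasi-likelihood test), where 11.2% of all 12875 tested genes rose and 7.93% fell. Both that rose were alternative isoforms of complex IV, Cox6a2 and Cox4i2. Those that fell were Uqcr10 of complex III, Sdha of complex II and Ndufs4 of complex I. No member of complex V passed the test against the day 1 shams in the fit of all libraries. Atp5g2 had a log2 fold change of 0.31 there. It was 0.74 without sham day 1 replicate 1 and 0.73 without the 3 libraries high in choroid plexus transcripts, which include that replicate. In a fit against all 6 shams, Atp5g2 (log2 fold change 0.40) and Atp5j2 (0.44) were called higher and Atp5a1 (-0.34) and Atp5s (-0.54) lower. The median log2 fold change was -0.10 over the members and -0.015 over all tested genes, and 47 of 83 members were lower at any size (56.6%), near the 51.3% of all tested genes. With scaling by library totals alone 30 were lower. The sign of the median and the counts depended on single libraries: the median was 0.094 without sham day 1 replicate 1 and 0.082 without the 3 libraries high in choroid plexus transcripts. There were 5 higher members without sham day 1 replicate 1, 1 without replicate 2, and 8 lower members without TBI day 1 replicate 4. The count of lower members was 1 in the fits that left out sham day 1 replicate 1, TBI day 1 replicates 1 or 2, sham day 14 replicates 1, 2 or 4, or TBI day 14 replicates 1 or 4. At an unadjusted p under 0.05, 2 were higher and 7 lower, 2.41% and 8.43% against 17.4% and 17% of all tested genes.

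Cox6a2 encodes the muscle isoform of subunit 6a of cytochrome c oxidase. Its level was 1.99 and 0.738 CPM in the sham samples of day 1, and 8.77, 7.67, 7.52 and 4.79 CPM in the TBI samples of day 1. Every TBI sample lay above both shams. The rise was 5.29-fold (log2 fold change 2.4, SE 0.41, adjusted p = 0.00123 by edgeR), and it passed the test in all 24 alternative fits that kept the gene. In the day 14 libraries the values were 0.524, 0.661, 0.595 and 0.490 CPM in sham and 0.398, 0.469, 0.696 and 0.317 CPM in TBI, so that these groups overlapped (log2 fold change -0.26, SE 0.39). The TBI effect differed between the days by 2.66 on the log2 scale (SE 0.56, adjusted p = 0.0182 by edgeR), the only member for which that test passed in the fit of all libraries. Cox8b also passed it when sham day 1 replicate 2 or TBI day 1 replicate 4 was left out (-6.59 and -6.86, adjusted p = 0.0359 and 0.0482 by edgeR). Of all tested genes, 2.24% had a higher and 1.44% a lower effect at day 1. That difference was 2.1 when sham day 1 replicate 2 was left out (adjusted p = 0.0575 by edgeR). Cox6a1, the common isoform of the same subunit, was at 416 and 239 CPM in sham and at 432, 371, 442 and 288 CPM in TBI at day 1, with overlapping groups (log2 fold change 0.23, SE 0.23).

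Cox4i2 encodes the alternative isoform of subunit 4. It was at 2.59 and 1.43 CPM in the sham samples of day 1 and at 7.05, 4.83, 5.18 and 3.58 CPM in the TBI samples, all above the shams. The rise was 2.57-fold (log2 fold change 1.36, SE 0.36, adjusted p = 0.0167 by edgeR). The call was lost when sham day 1 replicate 2 was left out (log2 fold change 0.99, adjusted p = 0.207 by edgeR) or in a fit of the compared groups alone (1.39, adjusted p = 0.126). At day 14 sham ran from 1.97 to 3.37 CPM and TBI from 2.33 to 3.34 CPM, and the groups overlapped (log2 fold change 0.12, SE 0.28). The difference of the effect between days was 1.24 (SE 0.45, adjusted p = 0.143), so a change between days was not shown. Cox4i1, the common isoform, was at 422 and 277 CPM in sham and at 298 to 411 CPM in TBI at day 1 (log2 fold change 0.05, SE 0.18).

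The other alternative isoforms did not pass in the fit of all libraries, and their values depended on single libraries. Ndufa4l2 was at 5.77 and 1.48 CPM in sham and 2.77 to 7.52 CPM in TBI at day 1, and Cox6b2 at 3.93 and 1.29 CPM in sham and 1.5 to 3.62 CPM in TBI, with overlap in both. Ndufa4l2 had a log2 fold change of 0.33 (SE 0.45), which became 1.61 when sham day 1 replicate 1 was left out (adjusted p = 0.0358 by edgeR) and -0.35 when replicate 2 was. Cox8b, which was chosen after its values were seen, was at 3.45 and 0.0461 CPM in the day 1 shams. Its highest value at day 14 was 2.58 CPM in TBI replicate 3. Both high values were in libraries with choroid plexus transcripts. In TBI at day 1 it differed from sham by -3.12 on the log2 scale (SE 1.24, adjusted p = 0.0889 by edgeR). Leaving out sham day 1 replicate 1 turned this to 1.92 (adjusted p = 0.563), while it was called lower when sham day 1 replicate 2 (-4.11, adjusted p = 0.0442) or TBI day 1 replicate 4 (-4.38, adjusted p = 0.0424) was left out. Among the 10 common complex IV genes, 6 were higher and 4 lower at day 1, with log2 fold changes from -0.37 to 0.23 and a median of 0.036.

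**Figure D1:**
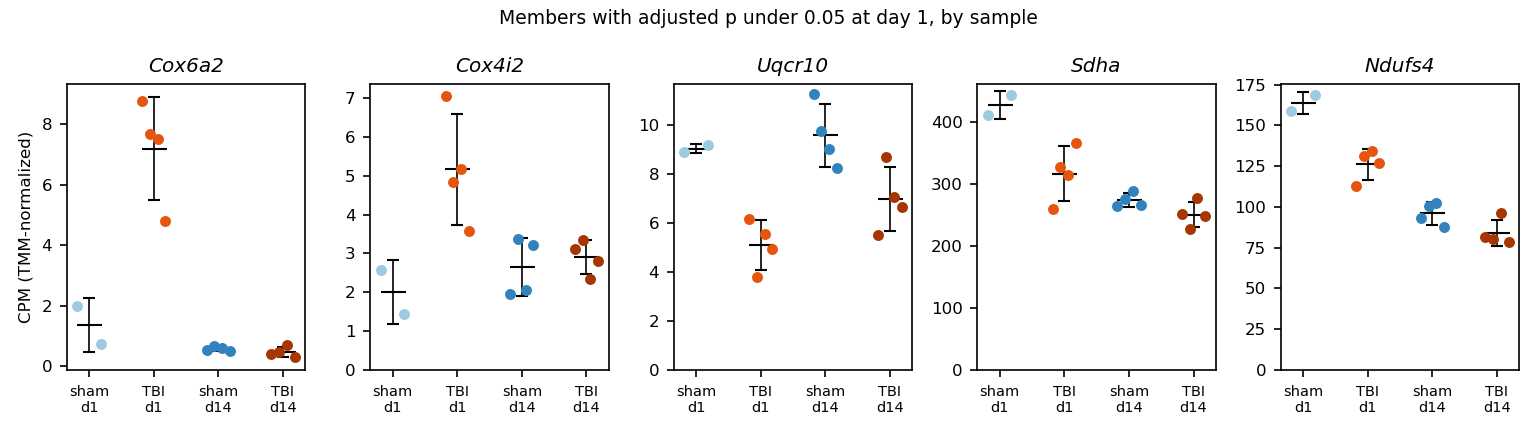
Normalized CPM (vertical axis, starting near 0) of the 5 members that passed the test at day 1, in each of the 14 libraries by group. Points are samples, and bars are the mean and SD; Cox6a2 and Cox4i2 are highest in TBI day 1, whereas Uqcr10, Sdha and Ndufs4 are lower in TBI day 1 than in sham day 1.

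Uqcr10 encodes a small subunit of complex III. It was at 8.89 and 9.18 CPM in the day 1 shams and at 6.17, 3.77, 5.55 and 4.92 CPM in TBI, with all TBI samples below the shams. On the log2 scale TBI differed from sham by -0.83 (SE 0.22, adjusted p = 0.0194 by edgeR). In the day 14 libraries the gene was at 11.3, 9.73, 9.03 and 8.22 CPM in sham and 5.51, 8.67, 7.05 and 6.65 CPM in TBI, where the groups overlapped (log2 fold change -0.45, SE 0.19, adjusted p = 0.283). The day 1 call was lost without sham day 1 replicate 2 (-0.80, adjusted p = 0.118 by edgeR), without the 3 libraries high in choroid plexus transcripts (-0.86, adjusted p = 0.0569), with scaling by library totals alone (-0.65, adjusted p = 0.0625) or in a fit of the compared groups alone (-0.79, adjusted p = 0.188).

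Sdha encodes the flavoprotein of succinate dehydrogenase, which is both complex II and an enzyme of the tricarboxylic acid cycle. It was at 412 and 443 CPM in the day 1 shams and at 259, 328, 314 and 366 CPM in TBI, without overlap. On the log2 scale TBI differed from sham by -0.43 (SE 0.14, adjusted p = 0.0408 by edgeR). Sdhb, the iron-sulfur subunit, was at 118 and 98.3 CPM in sham and at 107, 107, 137 and 103 CPM in TBI, with overlapping groups (log2 fold change 0.07, SE 0.14). Ndufs4, an accessory subunit of complex I, was at 159 and 168 CPM in sham and at 113, 131, 134 and 127 CPM in TBI, again without overlap (log2 fold change -0.37, SE 0.12, adjusted p = 0.0482 by edgeR). The sham level itself was not the same at both days: Sdha was at 264 to 289 CPM and Ndufs4 at 87.7 to 103 CPM in sham day 14. Against all 6 shams together, the log2 fold change at day 1 was -0.032 for Sdha and 0.094 for Ndufs4. Sdha passed in 10 of 25 alternative fits and Ndufs4 in 4 of 25. In a fit of the compared groups alone neither passed (log2 fold change -0.40 and -0.35, adjusted p = 0.284 and 0.293 by edgeR). Both calls were also lost without sham day 1 replicate 1 (-0.48 and -0.42) or replicate 2 (-0.38 and -0.33).

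Among the core subunits of complex I, Ndufs1, which carries iron-sulfur clusters, was at 191 and 249 CPM in sham and 116, 140, 178 and 194 CPM in TBI at day 1 (log2 fold change -0.48, SE 0.19, adjusted p = 0.087 by edgeR), and the groups overlapped. When TBI day 1 replicate 4 was left out, Ndufs1 was called lower (-0.60, adjusted p = 0.0322). Ndufv1, which binds NADH, was at 171 and 160 CPM in sham and 137 to 159 CPM in TBI (log2 fold change -0.17, SE 0.12). Of the ATP synthase, Atp5a1 and Atp5b, the alpha and beta subunits of the catalytic head, had log2 fold changes of -0.26 (SE 0.13) and -0.23 (SE 0.14), and neither passed. In all, 10 members had every TBI sample below both shams at day 1 and 2 had every TBI sample above, which is 12% and 2.41% of the members against 14.1% and 16.7% of all tested genes.

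Markers of other cell types moved at day 1, where 11.2% of all tested genes rose and 7.93% fell. Of 12 neuronal markers, 0 rose and 4 fell (Rbfox3, Slc17a7, Gad1 and Tubb3), and their summed level was 8743 to 12340 CPM in sham and 3833 to 7458 CPM in TBI, with none at 0. Of 9 microglial and macrophage markers, 5 rose and 1 fell, with sums of 332 to 567 CPM in sham and 787 to 1021 CPM in TBI. Of 5 markers of CA1, CA3 and dentate granule neurons 4 fell, Grik4, Bok, Prox1 and C1ql2 (median log2 fold change of the list -1.19). Some markers of astrocytes and neutrophils rose. Of 8 astrocyte markers 2 rose, Gfap and Glul, while the median log2 fold change of the list was -0.095. The astrocyte sums were 6333 to 9681 CPM in sham and 14585 to 21376 CPM in TBI. All 3 tested neutrophil markers rose, and the 5 listed ones summed to 0.968 to 1.19 CPM in sham and 11.1 to 46.4 CPM in TBI. Of 5 endothelial markers, 1 rose, with sums of 154 to 275 CPM in sham and 227 to 416 CPM in TBI. Among 7 oligodendrocyte markers 2 fell and 0 rose (median log2 fold change of the list -0.64). The oligodendrocyte sums overlapped, at 10819 to 14822 CPM in sham and 4212 to 15668 CPM in TBI. Their part in the changes of the members was not tested, and in bulk tissue fewer cells of a type and less RNA per cell cannot be told apart.

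At day 14 the same comparison asked what remained in the subchronic phase. No member passed the test in either direction by edgeR, where 4.07% of all tested genes rose and 0.365% fell. At an unadjusted p under 0.05, 1 member was higher and 14 were lower (1.20% and 16.9%, against 9.03% and 4.28% of all tested genes). limma-voom also called 0, and DESeq2 called 4 lower, Cox5a, Cox7c, Ndufb9 and Uqcrc2. The shares of all tested genes given here are those of the edgeR fit, and the share that DESeq2 called is not given. At any size, 73 of 83 members were lower (88%), where 55.8% of all tested genes were (64 members with scaling by library totals alone), and the median log2 fold change was -0.18 over the members and -0.031 over all tested genes. The members share the same libraries and are not independent of each other.

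**Figure D2:**
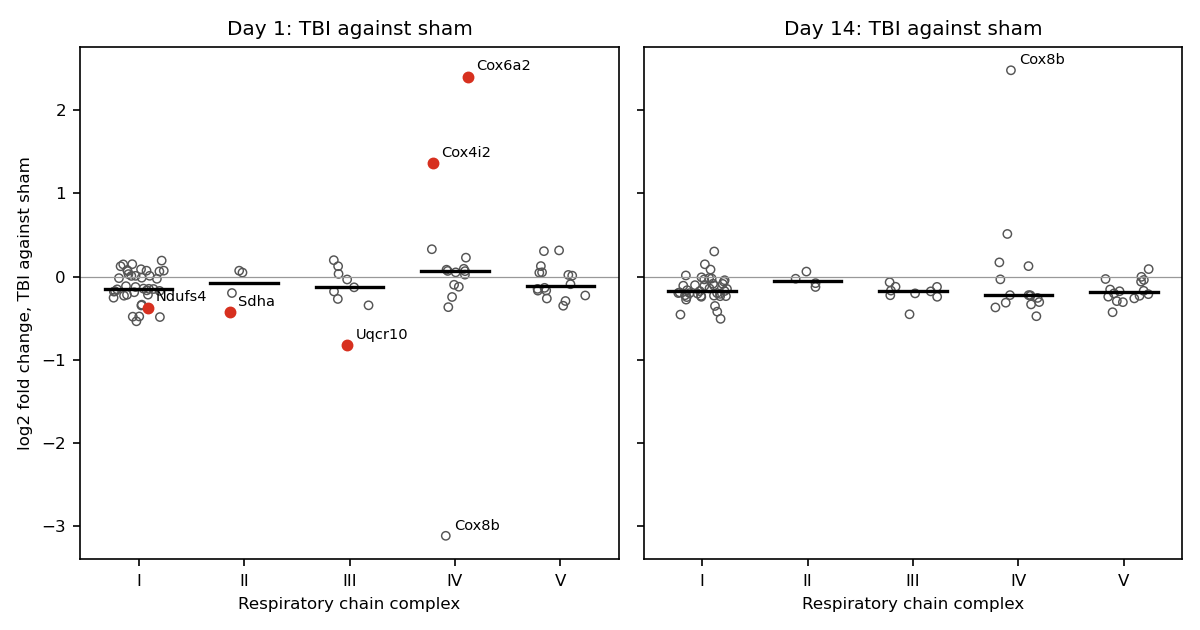
Log2 fold change of TBI against sham (vertical axis) for each of the 83 members by complex, at day 1 and at day 14. Filled points passed the test, open points did not, and black bars are medians; at day 14 no point is filled and the medians of all 5 complexes lie below 0.

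By complex, the lower values at day 14 included 35 of 39 members of complex I (median log2 fold change -0.17), 3 of 4 of complex II (-0.053), 9 of 9 of complex III (-0.18) and 15 of 16 of complex V (-0.19). All 7 core subunits of complex I were lower, with log2 fold changes from -0.25 to -0.11. In complex IV, all 10 common genes were lower (median -0.27), while 4 of the 5 alternative isoforms were higher, and none of these passed. The difference between the days was not shown for any common gene of complex IV.

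The smallest adjusted p at day 14 was that of Ndufb9, an accessory subunit of complex I, which was chosen after its values were seen, as were Cox7c, Ndufb6 and Ndufv3. Ndufb9 was at 199, 195, 149 and 213 CPM in sham and 138, 160, 140 and 126 CPM in TBI, where 1 TBI sample exceeded the lowest sham (log2 fold change -0.42, SE 0.12, adjusted p = 0.0663 by edgeR). Cox7c, a small subunit of complex IV, was at 108, 95.5, 79.1 and 85.2 CPM in sham and 58.1, 77.7, 66.3 and 62.0 CPM in TBI, without overlap (log2 fold change -0.48, SE 0.14, adjusted p = 0.0762 by edgeR). Neither passed. Cox5a, a subunit on the matrix side of complex IV, was at 82.6, 79.9, 75.6 and 72.2 CPM in sham and 66.3, 61.0, 65.5 and 57.8 CPM in TBI, also without overlap (log2 fold change -0.31, SE 0.10, adjusted p = 0.14). Ndufb6, an accessory subunit of complex I, was at 38.0 to 43.2 CPM in sham and 24.9 to 36.0 CPM in TBI (log2 fold change -0.46, SE 0.16, adjusted p = 0.153). The accessory subunit Ndufv3 went the other way, at 30.5 to 36.2 CPM in sham and 38.2 to 44.4 CPM in TBI (log2 fold change 0.30, SE 0.11, adjusted p = 0.168). In all, 12 members had every TBI sample below every sham and 1 had every TBI sample above, 14.5% and 1.20% of the members against 5.86% and 9.13% of all tested genes.

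Smaller differences were seen for Uqcrc1, Uqcrfs1, Atp5a1 and Ndufa4. Uqcrc1, a core protein of complex III, was at 158 to 177 CPM in sham and 143 to 158 CPM in TBI at day 14 (log2 fold change -0.17, SE 0.14), and Uqcrfs1, the Rieske iron-sulfur protein, was at 95.7 to 111 CPM in sham and 80.3 to 108 CPM in TBI (-0.20, SE 0.11). Atp5a1 was at 586 to 621 CPM in sham and 487 to 593 CPM in TBI (-0.20, SE 0.11). Ndufa4, a complex IV subunit named for complex I, was at 170 to 187 CPM in sham and 139 to 172 CPM in TBI (-0.23, SE 0.13). None of them passed.

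Over all members, the summed level at day 14 was 9542, 9723, 8827 and 9231 CPM in sham and 7647, 8491, 8974 and 7597 CPM in TBI. The TBI samples were lower except replicate 3, which lay above the lowest sham. TBI replicates 2 and 3, with the higher sums, were the libraries high in choroid plexus transcripts. Without the 3 such libraries the median log2 fold change of the members at day 14 was -0.27, with 75 of 83 lower and 0 called. At day 14, all 9 microglial and macrophage markers rose, with sums of 396 to 488 CPM in sham and 1015 to 1855 CPM in TBI. Of 8 astrocyte markers 1 rose, Gfap, and the median log2 fold change of the list was 0.11. The astrocyte sums were 5323 to 6615 CPM in sham and 8705 to 12914 CPM in TBI, without overlap. By edgeR 0 of 12 neuronal markers passed, with sums of 7766 to 10090 CPM in sham and 6356 to 8167 CPM in TBI. Their part in the lower values was not tested.

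**Figure D3:**
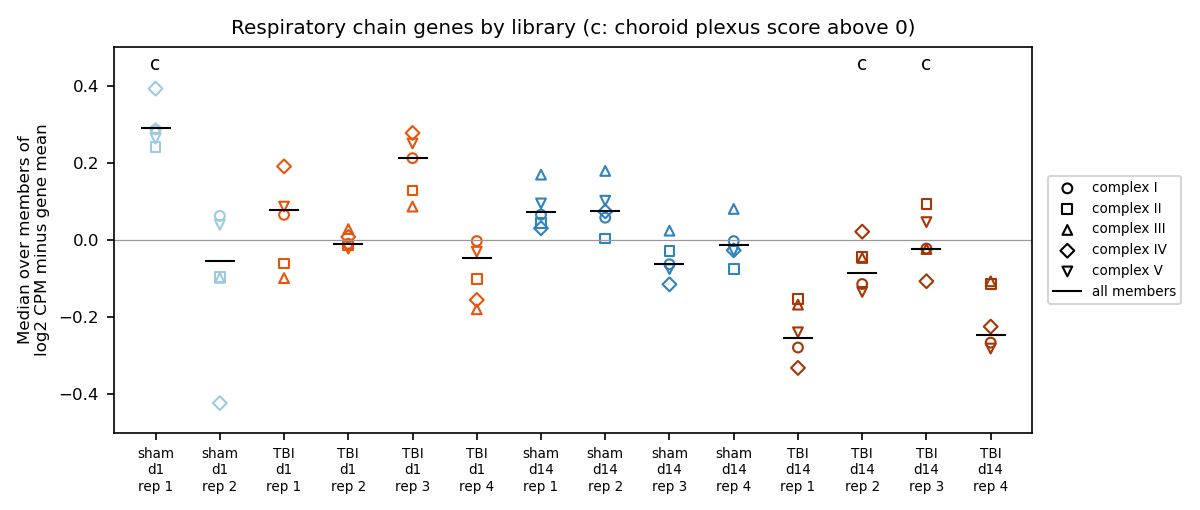
Median over the members of each complex of log2 CPM minus the gene's mean over all libraries (vertical axis), for each of the 14 libraries (horizontal axis), with black bars for all 83 members. The letter c marks the 3 libraries high in choroid plexus transcripts; TBI day 14 replicates 1 and 4 have the lowest medians, -0.26 and -0.25, and sham day 1 replicate 1 the highest, 0.29.

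The sham groups of both days were compared to ask how far the baseline itself moved. Of 83 members, 20 were higher and 4 lower in sham day 1 than in sham day 14 (adjusted p under 0.05 by edgeR), where 11.3% of all tested genes were higher and 7.88% lower. The counts depended on the day 1 shams: without sham day 1 replicate 1 there were 13 lower members, and without replicate 2 there was 1. A comparison of TBI day 1 with TBI day 14, added after the data had been seen, uses other samples. There 30 members were higher and 4 lower, where 21.9% of all tested genes were higher and 17.6% lower. Higher in both were 20 members, 24.1% against 7.69% of all tested genes, and lower in both were 3, Ndufa10, Cyc1 and Cox5a (3.61% against 4.68%). The 20 were 11 of complex I, 1 of complex II, 2 of complex III, 3 of complex IV and 3 of complex V. Across the 83 members Pearson's r between both sets of log2 fold changes was 0.36, and 65 members had the same sign (78.3%, against 70.5% of all tested genes). These values describe genes that share libraries, and Cox6a2 and Cox8b lie far from the rest. The labels name no sequencing batch, while the study states that expression in its trajectories was corrected for a batch effect. The day and a batch of libraries therefore cannot be told apart here.

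**Figure D4:**
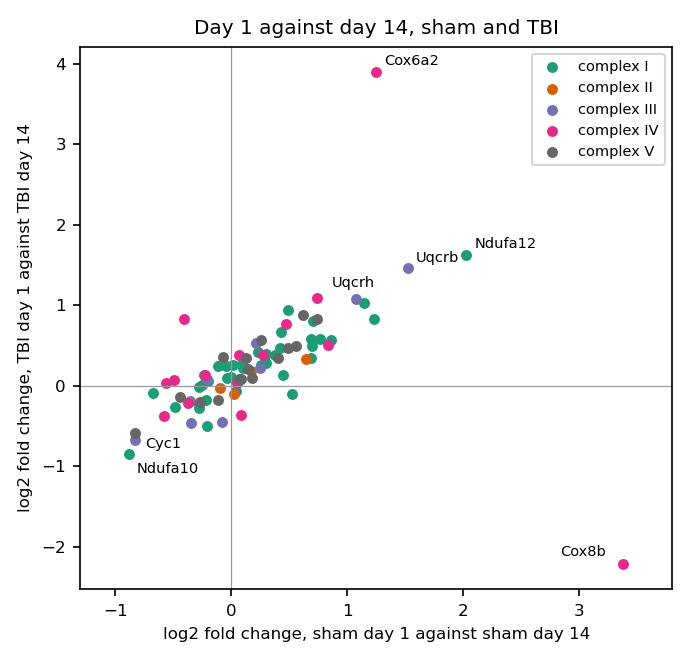
Log2 fold change of sham day 1 against sham day 14 (horizontal axis) and of TBI day 1 against TBI day 14 (vertical axis) for the 83 members, colored by complex. Ndufa12 (2.02 and 1.63) and Uqcrb (1.52 and 1.46) lie at the upper right, and Ndufa10 (-0.88 and -0.85) at the lower left.

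Ndufa12, an accessory subunit of complex I, was chosen after its values were seen, as were Uqcrb, Uqcrh and Ndufa10. Ndufa12 was at 50.2 and 79.4 CPM in sham day 1 and 30.8, 37.7, 45.8 and 71.7 CPM in TBI day 1, against 15.1 to 17.3 CPM in sham day 14 and 12.9 to 17.4 CPM in TBI day 14. Its day 1 level was 4.07-fold that of day 14 in sham (log2 fold change 2.02, SE 0.26, adjusted p = 0.000999 by edgeR) and 3.10-fold in TBI (1.63, SE 0.23, adjusted p = 8.3e-05). All 6 libraries of day 1 lay above all 8 of day 14. The complex III subunit Uqcrb was at 112 and 150 CPM in sham day 1 and 93.2 to 162 CPM in TBI day 1, against 44.0 to 47.7 and 38.9 to 45.8 CPM at day 14 (log2 fold change 1.52 in sham and 1.46 in TBI). Uqcrh, the hinge protein of complex III, was at 238 and 245 CPM in sham day 1 and 168 to 258 CPM in TBI day 1, against 112 to 117 and 90.0 to 113 CPM at day 14 (1.08 in both).

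The opposite order was seen for Cyc1, Cox5a and Ndufa10. Cyc1, the cytochrome c1 of complex III, was at 121 and 80.2 CPM in sham day 1 and 122, 101, 107 and 80.5 CPM in TBI day 1, against 167 to 186 and 146 to 184 CPM at day 14 (log2 fold change -0.83 in sham and -0.68 in TBI, adjusted p = 0.0095 and 0.00261 by edgeR). Cox5a was at 50.6 and 53.2 CPM in sham day 1 and 42.3 to 54.4 CPM in TBI day 1, below every day 14 library (-0.58 and -0.37). Ndufa10, an accessory subunit of complex I, had log2 fold changes of -0.88 and -0.85. Members of the same complex thus lay on both sides. Of all members, 16 had every day 1 library above every day 14 library and 3 had every one below, 19.3% and 3.61% against 7.45% and 5.64% of all tested genes.

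**Figure D5:**
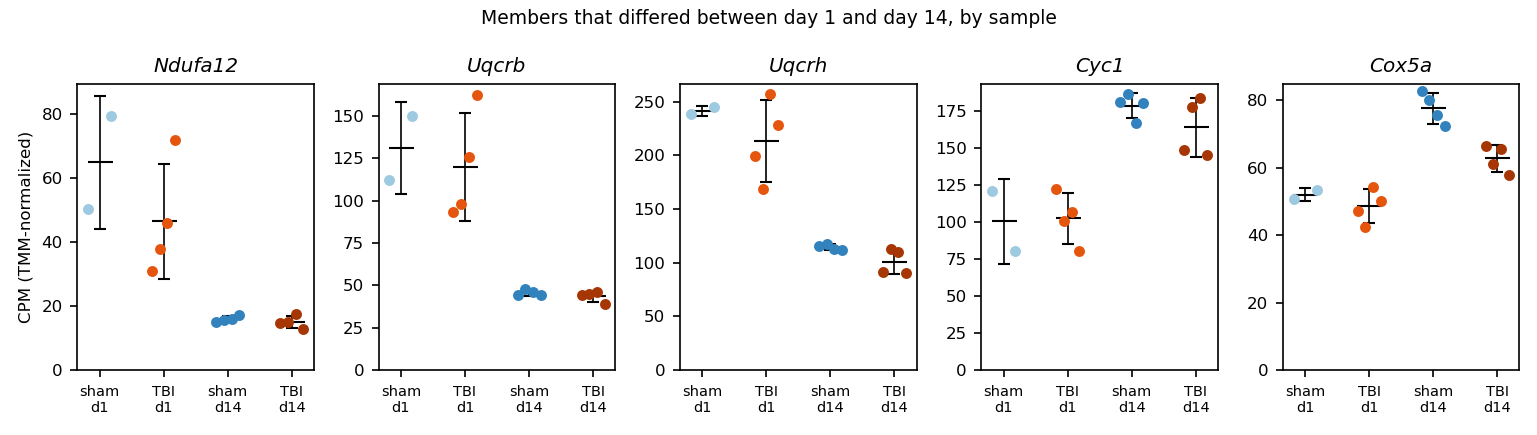
Normalized CPM (vertical axis, starting at 0) of 5 members by group, with points for samples and bars for the mean and SD. Ndufa12, Uqcrb and Uqcrh are higher in all 6 day 1 libraries than in all 8 day 14 libraries, and Cyc1 and Cox5a are lower.

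Set against sham day 14, the baseline that the study used for its trajectories, TBI day 1 gave 24 members higher and 14 lower, where 25% of all tested genes were higher and 21% lower. This comparison shares its shams with TBI against sham at day 14. Uqcr10 had a log2 fold change of -0.91 there (SE 0.19, adjusted p = 0.00135 by edgeR), next to -0.45 for TBI at day 14. Cox6a2 had 3.65 (SE 0.35, adjusted p = 1.93e-06), next to -0.26. Sdha, which fell against the day 1 shams, had 0.21 (SE 0.11, adjusted p = 0.145), and Ndufs4 was higher, at 0.39 (SE 0.10, adjusted p = 0.00637), so for Ndufs4 the direction depended on the baseline.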

How the data were processed

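RNA-seq counts per gene were used as deposited. Per the study's methods and the submitters' processing notes, the authors checked the 50-base single-end reads of stranded libraries with FastQC 0.11.8, aligned them to rn5 with STAR 2.4.2a and counted them with featureCounts 1.5.0; the strand setting is not given in the sources used here. All 14 count columns were mapped to samples by name. Genes with low counts were removed (filterByExpr by group), leaving 12875 of 17172. Counts were scaled by TMM and fitted with 1 mean per group in edgeR 4.0.16 (quasi-likelihood test, R 4.3.3), with Benjamini-Hochberg adjustment over all tested genes and a threshold of 0.05. CPM values use TMM library sizes and are not per length, so levels were not compared between genes. limma 3.58.1, DESeq2 1.42.0, other scalings and filters, a replicate block and leaving out each library were alternatives. Replicates were labeled as separate samples, and their counts differed by more than sampling noise. Chi-square per degree of freedom was 50.6 to 165 within the day 1 groups and 12.8 to 50.6 within the day 14 groups. The fit was tested on simulated data. The members and lists were chosen with earlier results of these data known. Values were given for fixed subunits and, in each complex, for the 2 largest increases and 2 largest decreases past the threshold. Sequences came from RefSeq (GRCr8). H3K4me3 peak files were not used here.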

Additional observations from a re-analysis of the deposited data

Results flagged for a closer look

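In groups of 4 samples, 81 sets of values were examined for a sample that stands apart from the other 3, by the gap to its nearest neighbor divided by the whole range of the group. Chance gives about 1 in 20 such sets, and 6 passed Dixon's critical value. TBI day 1 replicate 3 was highest for the sum of all members (gap share 0.864, 11100 CPM against 9380 to 9600 CPM), for Sdhb (0.848, 137 CPM against 103 to 107 CPM) and for Uqcrfs1 (0.899, 89.2 CPM against 77.1 to 78.2 CPM). Sham day 14 replicate 3 was lowest for Cox6a1 (0.897, 372 CPM against 508 to 527 CPM). TBI day 14 replicate 3, a library high in choroid plexus transcripts, was highest for Ndufs4 (0.834, 96.1 CPM against 78.7 to 81.3 CPM), and TBI day 14 replicate 4 was lowest for Uqcrb (0.833, 38.9 CPM against 44.6 to 45.8 CPM).

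The TBI effect on Cox6a2 differed between the days by 2.66 on the log2 scale (adjusted p = 0.0182 by edgeR), with 4 of 4 TBI samples above both shams at day 1 and overlapping groups at day 14.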

How the results depend on the processing

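Day 1: the count of higher members (2) was 1 with at least 10 counts in every sample, which removes Cox6a2, 1 in the compared groups alone and 6 against all 6 shams. The count of lower members (3) was 0 with library totals alone, 0 in the compared groups alone, 1 with the choroid plexus score as covariate, 8 against all 6 shams and 0 without the 3 choroid libraries. The median (-0.10) was 0.069 with library totals, which moved the median of all genes to 0.154, 0.054 with the choroid score and 0.082 without the choroid libraries. Against all 6 shams, Ndufs4 was at 0.094 and Cyc1 at -0.57 (adjusted p = 0.0455 by edgeR), both opposite in sign. Day 14: the count of lower members (0) was 4 by DESeq2, 2 in the compared groups alone, 2 with the choroid score and 1 against all 6 shams; higher members were 1 in the compared groups alone; the median was -0.27 without the choroid libraries. Difference between days: the median (0.074) was 0.195 with library totals, 0.37 with the choroid score and 0.37 without the choroid libraries; the higher count was 0 with at least 10 counts, and the lower count was 1 by DESeq2. Sham days: lower members (4) were 7 by DESeq2, 10 with the choroid score and 8 without the choroid libraries; higher members (20) were 13 without them; the median (0.094) was -0.049 with the choroid score and -0.050 without the choroid libraries. TBI day 1 against sham day 14: 8 lower and a median of 0.17 with library totals. TBI day 1 against TBI day 14: 2 lower without the choroid libraries. The cause of these shifts was not tested.

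Leaving out each library in turn gave, at day 1, 1 to 5 higher members (5 without sham day 1 replicate 1, 1 without replicate 2), 1 to 8 lower (8 without TBI day 1 replicate 4) and medians of -0.19 to 0.094 (0.094 without sham day 1 replicate 1). At day 14 it gave 0 to 0 higher, 0 to 1 lower and medians of -0.22 to -0.14. The difference gave 0 to 1 higher, 0 to 1 lower and medians of -0.040 to 0.26. The sham days gave 13 to 22 higher, 1 to 13 lower and medians of -0.057 to 0.29. TBI day 1 against sham day 14 gave 17 to 24 higher, 11 to 17 lower and medians of -0.011 to 0.085. TBI day 1 against TBI day 14 gave 20 to 32 higher, 3 to 7 lower (7 without TBI day 1 replicate 1 or 3) and medians of 0.13 to 0.26.

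Whether the replicate numbers pair the samples was not settled. Of 18 same-number pairs, 5 had correlated deviations over 0.1 (range -0.35 to 0.24). For sham and TBI of the same day, the correlation was 0.127 and 0.073 for day 1 replicates 1 and 2. It was -0.038, 0.131, 0.240 and 0.115 for day 14 replicates 1 to 4. Values for pairs with different numbers, which would serve as a reference, are not given. With a replicate block, 2 members were higher and 3 lower at day 1, and 0 and 0 at day 14. The lower members were not the same genes: Uqcr10 was not called (-0.78, adjusted p = 0.052 by edgeR), and Ndufs1 was (-0.64, adjusted p = 0.0257), beside Sdha and Ndufs4. With 2 sham samples at day 1, each day 1 value rests strongly on either library.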

Other observations

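Other mitochondrial gene lists were read from the same fit, in which 11.2% of all tested genes rose and 7.93% fell at day 1. At day 1, 0 of 20 genes of the tricarboxylic acid cycle passed the test (median log2 fold change -0.23), nor did any of 13 complex IV assembly and copper delivery genes (0.031), 14 assembly factors of the other complexes (-0.11), 12 genes for mobile carriers and the ATP synthase inhibitor (-0.023) or 8 uncoupling proteins and isoform regulators (-0.047). Of 16 regulators of mitochondrial biogenesis, 1 rose and 1 fell. Ppargc1a, the coactivator PGC-1alpha, was at 27.9 and 43.5 CPM in sham and 14.2, 20.8, 14.7 and 16.2 CPM in TBI, without overlap (log2 fold change -1.12, SE 0.24, adjusted p = 0.00578 by edgeR). Its sham level at day 14 was 15 to 24.6 CPM, and the log2 fold change of TBI there was -0.22 (SE 0.21). Pprc1, a related coactivator, was at 46.6 and 53.6 CPM in sham and 62.6, 87.7, 69.8 and 66.4 CPM in TBI, all above the shams (0.52, SE 0.14, adjusted p = 0.0224).

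Of 12 genes for ATP and phosphate exchange and outer membrane pores, 1 fell at day 1, where 7.93% of all tested genes did. Ckmt1b, a mitochondrial creatine kinase, was at 302 and 476 CPM in sham and 155, 171, 284 and 224 CPM in TBI (log2 fold change -0.90, SE 0.21, adjusted p = 0.00958 by edgeR). At day 14 the counts of called genes in these lists were 0, where 4.07% of all tested genes rose and 0.365% fell. The medians of the lists ran from -0.105 to -0.052.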
